A study of Homo sapiens with 8 samples.

Results

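The demethylating agent OR21 (also written OR-2100) was followed in KBM5 cells on the 4 arrays labelled with that cell line, out of 8 arrays in the series. The 4 arrays were chosen by their labels alone. Arrays with OR21 were OR21 and the combination, 2 arrays, and arrays without it were control and IM (imatinib), also 2. KBM5 is an established human chronic myeloid leukaemia line, and so is K562, which supplied the other 4 arrays with the same treatments. Control cells received no drug, OR21 cells received 100 nM OR21 for 3 consecutive days, and IM cells received 1000 nM IM for 24 hours. Combination cells received the OR21 course and then IM. For the combination, 100 nM of OR21 comes from the written protocol, because the sample's own label gives no number there. Cells of all groups grew in RPMI-1640 with foetal bovine serum. Each line and treatment had 1 array, and neither DNA methylation nor protein was measured.

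In dividing cells, DNMT1 copies methyl groups at CG dinucleotides onto the new DNA strand with the help of UHRF1. Demethylating agents interfere with this maintenance, so that methylation is diluted as cells divide, and genes silenced by promoter methylation can become active again. In myeloid cells, early granulocyte precursors make the enzymes of the azurophil granules, such as myeloperoxidase, elastase and cathepsin G, while IRF8 and CCR2 belong to the monocyte and dendritic branch.

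With 1 array in a group, OR21 was compared with no OR21 in 2 disjoint pairs, OR21 minus control and combination minus IM, on the log2 scale of the deposited intensity. In the limma model each line had a baseline and separate terms for OR21 and for IM. The p-values reflect only how far the 2 drugs departed from adding up on these arrays, and not the spread between repeated cultures. The median intensity of the 8 arrays lay between 77.8 and 83.3. Background was set for each array at the 95th percentile of its 612 negative controls, which was 263 on the KBM5 control, 189 with OR21, 229 with IM and 194 with the combination. Background was thus lower on both KBM5 arrays with OR21 than on both without it, and 161 to 186 on the K562 arrays. Above their own background were 5874 of 17687 genes on the control array, 6668 with OR21, 6091 with IM and 6637 with the combination. Precision is limited by the small number of arrays.

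KBM5 cells had the profile of a myeloid line. Of 12 measured myeloid markers, 6 were above background on all 4 arrays, among them the master regulator SPI1 (9209.3 on the control array) and the granule protein genes PRTN3 (25244.9) and AZU1 (17749). Of 11 erythroid markers, 10 were at background on all 4 arrays, and the exception was the transferrin receptor TFRC, which dividing cells of many types express. All 7 megakaryocytic markers were at background, as were 11 of 13 lymphoid, 11 of 13 epithelial and 8 of 10 fibroblast markers. The lymphoid marker CD4, which monocytic cells also carry, was above background on all 4 arrays.

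With OR21, more genes were called higher than lower in KBM5. By limma, 86 of 17687 genes (0.486%) rose and 10 (0.0565%) fell, or 96 in all (0.543%), and 1173 higher and 1047 lower genes had an unadjusted p under 0.05. At background on all 4 KBM5 arrays were 12 of the 86 rises and 4 of the 10 falls, and these calls carry no fold. The largest rises were in MPO, PPP1R27, KCNH2, PRG2 and CST7, and the largest falls in CCR2, AFF3 and IRF8. At least 2-fold higher in both pairs, and above background on both arrays with OR21, were 80 genes (0.452%). At least 2-fold lower in both pairs, and above background on both arrays without OR21, were 14 (0.0792%). Without the condition on background these counts were 139 and 27. Of the 86 rises, 50 (58.1%) were also at least 2-fold in both pairs with both OR21 arrays above background. Medians over all genes were near 0, at -0.02 for OR21 minus control and -0.03 for combination minus IM. Of the 86 rises, 43 were larger without IM and the others larger with it. In these bulk samples, a change in the share of cells that carry an RNA and a change in RNA per cell cannot be told apart.

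The number of calls depended on how spread and low values were treated. With log2(value + 16), which shrinks low values, limma called 3 genes, MPO, PRG2 and CST7, while the count of genes above background and changed at least 2-fold in both pairs was 87 in place of 94. With an intensity trend and robust moderation it called 243, with each array centred on the genes above background 48, in the 4 KBM5 arrays alone 54, and with a common OR21 by IM term 43. Without any single K562 array there were 54 calls, and without the KBM5 control or KBM5 OR21 array 157.

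**Figure D1:**
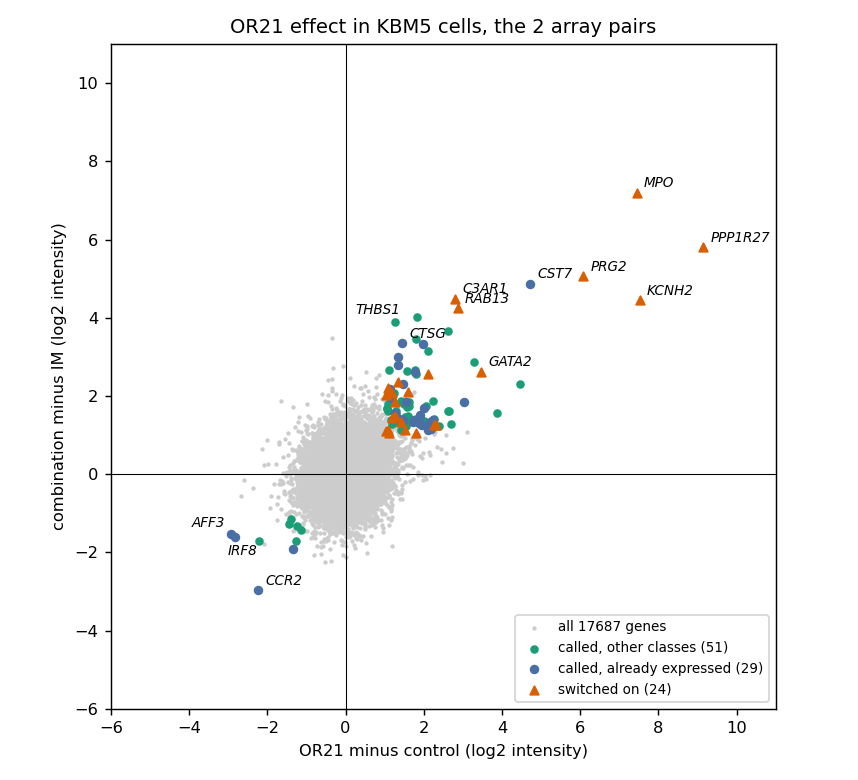
Each point is a gene, with OR21 minus control on the horizontal axis and combination minus IM on the vertical axis, both in log2 intensity of KBM5 cells. Triangles mark the 24 genes switched on from background, and coloured circles other genes called by limma. MPO, PPP1R27, PRG2, KCNH2 and CST7 lie far to the upper right, and CCR2, IRF8 and AFF3 to the lower left.

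Genes switched on were those not above background on the control and IM arrays, above it on the OR21 and combination arrays, and at least 2-fold higher in both pairs. There were 24 of 11049 genes (0.217%) that started at background, and 1 of 5327 (0.0188%) that went the opposite way. Without the fold requirement the counts were 186 and 6. Background was lower on both arrays with OR21, so a gene of constant intensity could count upward there but not downward. The unequal backgrounds also made the rule with a fold easier to meet upward than downward. The 24 genes were chosen by the values described here, so their levels are a description. The adjusted p-values are those of the fit over all genes. In that fit 16 of the 24 were called higher. A fold from background is a lower bound, set against the background of the arrays without OR21, or the gene's own value where it was higher.

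MPO encodes myeloperoxidase, the defining enzyme of azurophil granules. Its intensity was 65.8 on the control array and 35.9 with IM, against 11441.7 with OR21 and 5282.5 with the combination. Both arrays with OR21 stood far above both without, and MPO was at least 31.7-fold higher (log2 difference 7.32 ± 0.27 SE, limma adjusted p = 1.15e-06). PRG2 encodes the major basic protein of eosinophil granules. It measured 208.7 on control, 14081.8 with OR21, 35.8 with IM and 1189.5 with the combination, at least 16.7-fold higher (5.57 ± 0.28, limma adjusted p = 9.1e-06). Its value after the combination was well below that after OR21 alone. Both values without OR21 were at background, so the difference between control and IM cannot be read.

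PPP1R27, a regulatory subunit of protein phosphatase 1, went from 22.1 on control to 12564.3 with OR21, and from 68.2 with IM to 3800.4 with the combination. It was at least 28.2-fold higher (limma adjusted p = 0.000403). KCNH2, the hERG potassium channel, was at 34.6 on control, 6376 with OR21, 31.0 with IM and 675.3 with the combination. It was at least 8.46-fold higher (limma adjusted p = 0.00153), and the array with OR21 alone was again the brightest. In K562, KCNH2 was bright on every array, from 17404 to 27174.7.

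Other switched-on genes were brighter after the combination than after OR21 alone. C3AR1, the receptor for the complement fragment C3a, measured 43.7 on control, 305.7 with OR21, 93.3 with IM and 2096.5 with the combination, at least 3.26-fold higher (limma adjusted p = 0.00508). RAB13, a small GTPase of vesicle transport, measured 67.0, 489.1, 69.1 and 1307.3 in the same order, at least 3.26-fold higher (limma adjusted p = 0.00284). APOC2, the apolipoprotein that activates lipoprotein lipase, measured 91.4, 394, 120.3 and 706.8, at least 2.15-fold higher (limma adjusted p = 0.00744). Over the 24 genes, 11 differences were larger in the pair without IM and the rest in the pair with it. The gene APOC4-APOC2, a read-through whose probes may share sequence with APOC2, stood just outside the 2-fold threshold with log2 differences of 0.97 and 1.90.

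GATA2 is a transcription factor of stem and progenitor cells, mast cells and basophils. It measured 196 on control, 2153.5 with OR21, 75.7 with IM and 464.1 with the combination. Both OR21 arrays lay above both others, and GATA2 was at least 4.07-fold higher (3.04 ± 0.30, limma adjusted p = 0.00284). In K562 it was above background without IM (1461.4 on control, 1054.7 with OR21) and below it with IM (107.3 and 143.1), and its OR21 effect there was -0.03 ± 0.30.

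The remaining named genes of this class had bounds below those of the genes above, apart from FCGR1BP. EFEMP2, an extracellular matrix protein, rose from 101.5 to 309.1 without IM and from 87.5 to 374.6 with it. SUOX, the mitochondrial sulfite oxidase, rose from 43.2 to 216 and from 110.2 to 264.2, too near background for a bound. SLC26A2 (a sulfate transporter), EOGT (a glycosyltransferase), PIM2 (a serine/threonine kinase) and RHBDD2 (a rhomboid family member) were called too, with bounds between 1.00-fold and 1.68-fold. FCGR1BP, a pseudogene related to the Fc receptor gene FCGR1A with which its probes may cross-hybridise, was at 113.1, 288.9, 228.3 and 1161.4. The other 9 genes, CD52, MT1H, SIRPB1, FILIP1L, ACP2, RET, MARCHF3, DRAM1 and HSH2D, fall outside the naming rule and are listed to complete the class. Of these SIRPB1 was called (limma adjusted p = 0.0495) and 8 were not. The smallest difference inside the class was 1.03, and NECAP1, just outside, measured 116.9, 230.4, 193.9 and 443.8 (log2 differences 0.98 and 1.19).

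Which genes counted as switched on depended on the height of the background. With the 99th percentile of the negative controls, 767.6 to 1853.3 on the 4 arrays, 6 genes met the rule, and MPO and PPP1R27 were the 2 of the 24 among them. With the 90th percentile, 100.1 to 119.7, there were 28, of which 8 were among the 24: C3AR1, EFEMP2, KCNH2, MPO, PPP1R27, RAB13, SLC26A2 and SUOX. With the highest KBM5 background set for all 4 arrays, an alternative chosen after seeing the data, 18 remained, and ACP2, CD52, DRAM1, FILIP1L, SLC26A2 and SUOX dropped out. At 3-fold 9 genes remained.

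**Figure D2:**
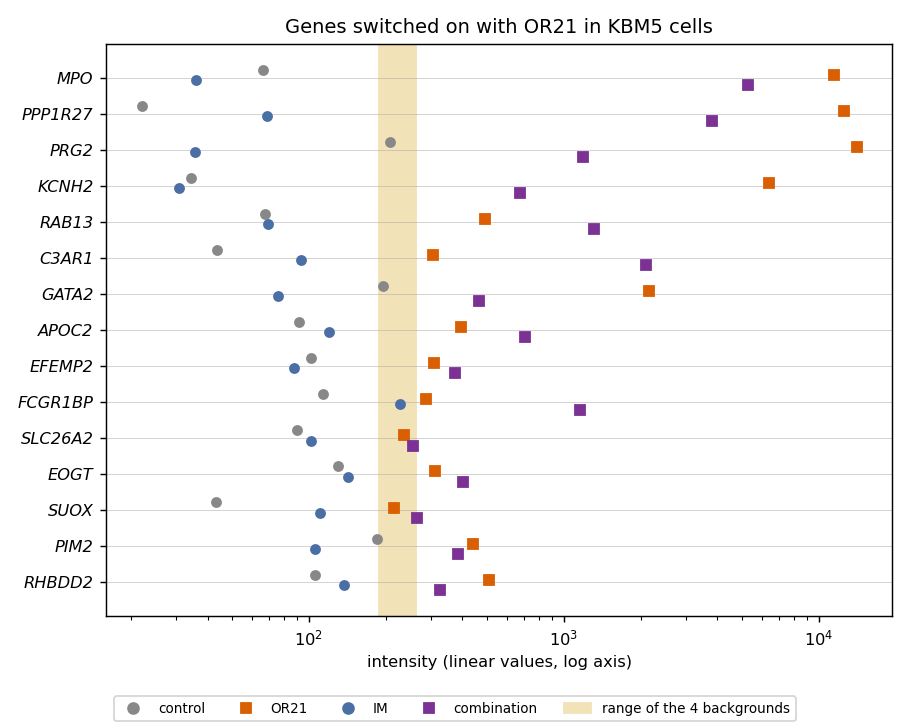
The 15 switched-on genes with the largest smaller difference of the 2 pairs, 1 row each, with linear intensity on a log axis for the 4 KBM5 arrays. The shaded band spans the 4 backgrounds, 189 to 263. Circles (no OR21) lie within or below the band and squares (with OR21) within or above it, with MPO the most widely separated at 65.8 and 35.9 against 11441.7 and 5282.5.

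Because DNA methylation sits on CG dinucleotides, promoters are shown for 4 of the 7 switched-on genes with the largest smaller-pair difference and for 1 fall, taken from RefSeq (GRCh38.p14). MPO, PRG2 and RAB13 are not shown. Printed are the 250 bases before each start, 5′ to 3′ in the direction of the gene, with each CG in capitals. CG reads the same on both strands. KCNH2 (chr7:150978322-150978571, minus strand), GATA2 (chr3:128493202-128493451, minus strand) and PPP1R27 (chr17:81835051-81835300, minus strand) are switched-on genes whose printed stretch holds at least 12 CG. C3AR1 (chr12:8066360-8066609, minus strand) is a switched-on gene whose stretch has almost no CG. CCR2 (chr3:46353861-46354110, plus strand) is the leading gene that fell. For each gene 1 start was taken, and the arrays do not show where its transcripts began.
KCNH2: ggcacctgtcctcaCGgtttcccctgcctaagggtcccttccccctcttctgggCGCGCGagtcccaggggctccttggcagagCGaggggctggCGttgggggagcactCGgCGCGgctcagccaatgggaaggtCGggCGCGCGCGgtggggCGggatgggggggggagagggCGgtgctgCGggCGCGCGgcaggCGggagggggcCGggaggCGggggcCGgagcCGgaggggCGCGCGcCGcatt
GATA2: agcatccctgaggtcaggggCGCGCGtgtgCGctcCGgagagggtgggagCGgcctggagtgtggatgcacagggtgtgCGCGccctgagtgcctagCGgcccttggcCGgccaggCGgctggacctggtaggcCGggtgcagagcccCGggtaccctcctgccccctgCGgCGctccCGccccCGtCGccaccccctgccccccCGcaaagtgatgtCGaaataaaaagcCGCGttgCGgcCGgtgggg
PPP1R27: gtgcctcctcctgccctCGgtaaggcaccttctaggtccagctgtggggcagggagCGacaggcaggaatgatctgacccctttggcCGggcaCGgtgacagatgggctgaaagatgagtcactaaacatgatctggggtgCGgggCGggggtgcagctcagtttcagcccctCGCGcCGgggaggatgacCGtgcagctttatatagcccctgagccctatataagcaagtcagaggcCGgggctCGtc
C3AR1: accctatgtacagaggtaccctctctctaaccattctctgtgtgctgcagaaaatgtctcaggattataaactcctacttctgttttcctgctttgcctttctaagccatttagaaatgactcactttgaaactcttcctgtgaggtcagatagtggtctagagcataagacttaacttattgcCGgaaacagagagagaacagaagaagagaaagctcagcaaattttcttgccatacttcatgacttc
CCR2: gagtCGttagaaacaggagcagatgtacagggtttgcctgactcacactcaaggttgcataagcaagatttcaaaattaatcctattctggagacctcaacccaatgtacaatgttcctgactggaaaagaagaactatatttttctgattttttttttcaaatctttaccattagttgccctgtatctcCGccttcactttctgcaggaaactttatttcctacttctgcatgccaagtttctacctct
The stretches hold 29 CG in KCNH2, 24 in GATA2, 12 in PPP1R27, 1 in C3AR1 and 2 in CCR2.

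Over the 300 bases from 250 before to 50 after the start, the switched-on genes as a class had about the CG content of all genes. A promoter was available for 17 of the 24, with MPO and PRG2 among those without, and for 14250 of all genes. Their median was 25 CG (2 to 48), against 22 over all genes, 26 over genes already expressed and 16 over genes at background on all 4 arrays. CpG-rich promoters, with over 50% GC and an observed over expected CG of above 0.6, made up 64.7% of the 17, 64.6% of all genes, 84.5% of the genes already expressed and 50.3% of those at background. At least 1 CG was present in 98.1% of all promoters. Of the 10 called falls, 8 had a promoter, with a median of 5.5 CG, and 1 of these was CpG rich (12.5%). Among these 8, MANEAL and OR1L6 were at background on all 4 arrays. Each count rests on 1 start for a gene. Among the called rises, 64 of 86 had a promoter and 51.6% of these were CpG rich. Their CG counts ran from 0 to 46. Few CG were held by CTSG and CD86 (3), MNDA and CEBPE (2), FCGR1A (1) and CLEC12A (0). Many were held by CTSD (43), ANPEP (32) and GATA2 (29). No test was run on these shares.

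Among the 5247 genes above background on all 4 KBM5 arrays, 25 (0.476%) rose and 4 (0.0762%) fell by limma, and 44 (0.839%) and 10 (0.191%) were at least 2-fold higher or lower in both pairs. CST7 encodes cystatin F, an inhibitor of the proteases that process granule enzymes. Its intensity was 945 on control, 24909.4 with OR21, 322.4 with IM and 9443.4 with the combination. The rise was 26.4-fold without IM and 29.3-fold with it (4.80 ± 0.23, limma adjusted p = 8.03e-06), so nearly the same size in both pairs. CTSG, the azurophil granule protease cathepsin G, measured 6992.5 on control, 19152.5 with OR21, 2836.9 with IM and 28746 with the combination. The fold was 2.74 in the first pair and 10.1 in the second (2.40 ± 0.37, limma adjusted p = 0.0247). MS4A3, a membrane protein of granulocyte precursors, rose from 335.6 to 2735 and from 585 to 2110.3 (2.44 ± 0.29, limma adjusted p = 0.00767).

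CTSD, the lysosomal aspartic protease, measured 2245.6 with OR21, 4.00-fold its control value, 2619.4 with IM and 8413 with the combination. The groups overlap, since IM alone lay above OR21 alone, yet both pairs rose, the second 3.21-fold (1.84 ± 0.24, limma adjusted p = 0.012). TIMP1, the metalloproteinase inhibitor, went from 504.5 to 1715.3 and from 773.4 to 4705.4 (limma adjusted p = 0.012). CD55, which shields cells from complement, went from 2058.6 to 7639.7 and from 2492.2 to 7166.9 (limma adjusted p = 0.0247). FCGR1A, the high-affinity IgG receptor of monocytes, went from 585.3 to 1624.8 and from 1864.3 to 9134.9 (limma adjusted p = 0.0247), again with IM alone above OR21 alone. TARP, a transcript of the T cell receptor gamma locus whose probes may share sequence with it, went from 1012.9 to 4019.2 and from 511.2 to 5158.7 (limma adjusted p = 0.00754).

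The 4 genes called lower in this class were CCR2, IRF8, AFF3 and TIFAB. CCR2, the chemokine receptor that guides monocytes, measured 1107.7 on control, 235.4 with OR21, 17586.5 with IM and 2246.5 with the combination. It fell in both pairs (-2.60 ± 0.30, limma adjusted p = 0.00644), while IM alone gave the highest value, so that the combination remained above control. IRF8, a transcription factor that directs progenitors toward monocytes and dendritic cells, measured 19984, 2834.2, 29303.7 and 9677.5 in the same order. Both arrays with OR21 lay below both without (-2.21 ± 0.35, limma adjusted p = 0.0265). AFF3, a member of the AF4 family of transcription elongation factors, measured 2994, 395.6, 3288.6 and 1134.3 (-2.23 ± 0.32, limma adjusted p = 0.0206), with the same separation. TIFAB, a TIFA-related signalling adaptor gene, measured 520.5, 206.9, 2751.4 and 727.5 (limma adjusted p = 0.0242).

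The other 6 of the 10 genes at least 2-fold lower were not called. ATP10A came nearest, at 927.8 on control, 365 with OR21, 1044.2 with IM and 383.8 with the combination (limma adjusted p = 0.0544). DPYSL2, BTAF1, PDE7A, LYRM7 and ARHGAP26 had adjusted p-values in limma between 0.0569 and 0.106. CENPB, a centromere protein gene, was the 1 gene that went from above to not above background. It measured 399.4, 143, 320.6 and 158.7 and was not called (-1.25 ± 0.24, limma adjusted p = 0.0575).

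**Figure D3:**
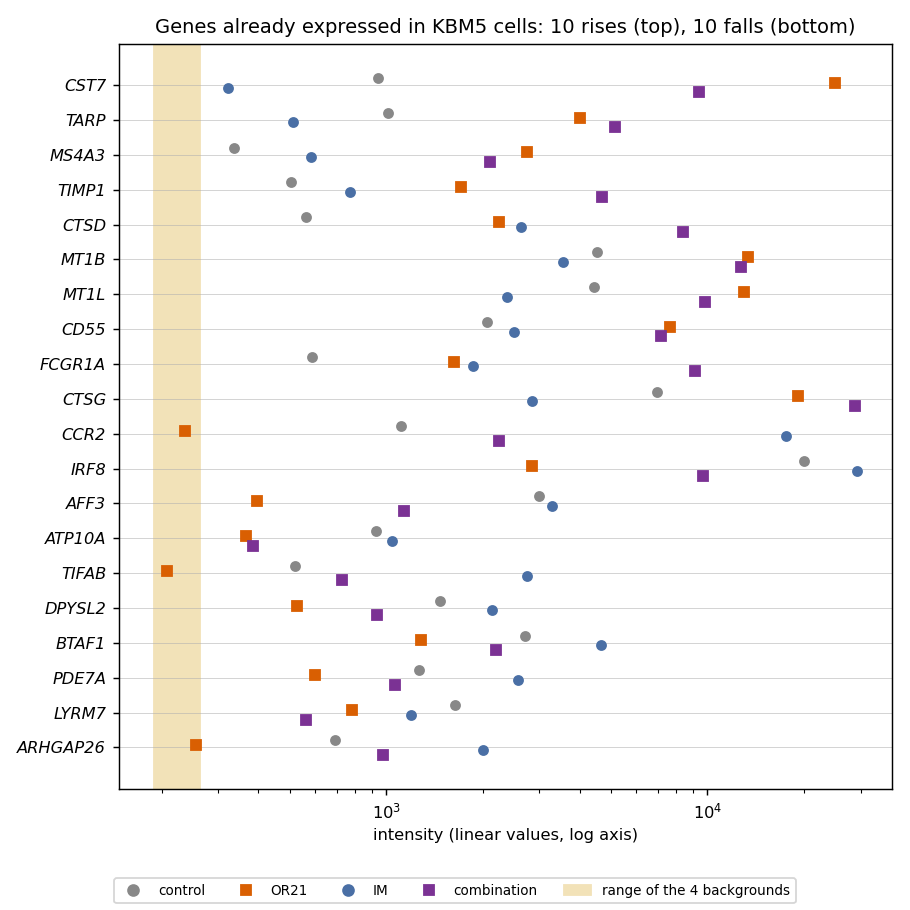
Linear intensity on a log axis on the 4 KBM5 arrays for the genes above background on all 4, the 10 rises and 10 falls with the largest smaller difference of the 2 pairs. The shaded band spans the 4 backgrounds, 189 to 263. CST7 shows the widest separation among the rises, and CCR2 shows IM alone (17586.5) far above the other 3 arrays. MT1L and 6 of the falls were not called by limma.

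Some calls were lost when 1 array was left out, which also leaves the fit with fewer residual degrees of freedom. These omissions were not 8 separate checks. Leaving out any K562 array gave the same fit as the KBM5 arrays alone. Leaving out a KBM5 array left 1 KBM5 pair, with the spread taken from K562, and either array of a pair gave the same fit. Of 38 named genes called in KBM5, 18 kept their call with each of the 8 arrays left out: MPO, PPP1R27, PRG2, KCNH2, RAB13, C3AR1, GATA2, APOC2, CST7, TARP, MS4A3, CTSD, CCR2, CEBPE, SLPI, CD86, CLEC12A and MNDA. The others, CTSG, TIMP1, IRF8 and AFF3 among them, lost it at least once, with limma adjusted p of up to 0.0936 for CTSG, 0.0653 for TIMP1, 0.0932 for IRF8 and 0.0589 for AFF3.

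Granule proteins were among the rises. The list of neutrophil and eosinophil granule genes was put together after the leading genes had been seen, so its count describes them and is no independent evidence. Of its 33 measured genes 20 were at background on all 4 arrays, 10 rose and 0 fell by limma (13 and 1 at an unadjusted p under 0.05), beside 0.486% and 0.0565% of all genes. SLPI, the secretory leukocyte protease inhibitor, measured 556.7 on control, 3439.1 with OR21, 90.3 with IM and 1134.3 with the combination (limma adjusted p = 0.00307). EPX, eosinophil peroxidase, was at background on all 4 arrays, with 13.5, 87.4, 10.7 and 26.0, and its call carries no fold. The others called were MPO, CTSG, CST7 and PRG2, described above, and SRGN, CHI3L1, RNASE2 and SERPINB10.

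Other bright granule genes were not called. PRTN3 (proteinase 3) measured 25244.9, 44585.8, 21917 and 27502.3 (limma adjusted p = 0.43), and AZU1 (azurocidin) 17749, 38589.2, 49481.8 and 82395.7 (limma adjusted p = 0.177). LYZ, lysozyme, was higher with OR21 than on control (31218 against 12342) and lower with the combination than with IM (185904.7 against 254951.2). Genes of the later specific granules, LTF, LCN2, CAMP and MMP8, were at background on all 4 arrays, and so was BPI. Median log2 differences of the list were 0.67 in the pair without IM and 0.17 with it.

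The markers of mast cells, basophils and eosinophils moved in part. Of 10 measured, PRG2, GATA2 and EPX were called higher and 0 lower by limma (3 and 0 at an unadjusted p under 0.05), against 0.486% of all genes called higher. The mast cell genes CPA3, TPSAB1, TPSB2 and KIT, the histamine-forming enzyme HDC, the IgE receptor gene FCER1A and the eosinophil and basophil gene CLC were at background on all 4 arrays. Of 12 myeloid markers, MPO, CTSG and CEBPE were called higher and 0 lower (4 and 0 unadjusted). CEBPE, a transcription factor of later granulocyte maturation, was at 51.0 on control, 241.4 with OR21, 34.7 with IM and 127.5 with the combination (limma adjusted p = 0.00832), above background on the OR21 array alone.

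Among 42 lineage transcription factors, GATA2 and CEBPE rose and IRF8 fell by limma, beside 0.486% and 0.0565% of all genes. Of the 42, 19 were at background on all 4 arrays. SPI1 (PU.1), measured at 9209.3, 5619.2, 14331.4 and 14862.1, was not called (limma adjusted p = 0.656). CEBPA, at 1593.3, 1304.6, 3032.6 and 3397.4, was not called either (limma adjusted p = 0.943). The list medians were -0.05 and 0.08, beside -0.02 and -0.03 over all genes.

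Monocyte and dendritic cell genes moved in both directions. This list too was put together after the leading genes had been seen. Of 42 measured, 7 rose and 2 fell by limma, with CCR2 and IRF8 the falls, beside 0.486% and 0.0565% of all genes. CD86, a costimulatory ligand, was at 12.8 on control, 55.5 with OR21, 118.5 with IM and 1055.8 with the combination (limma adjusted p = 0.00617). It was above background only on the combination array. CLEC12A, a myeloid lectin receptor, measured 116.1, 721.6, 1511.8 and 4640.8 in the same order (limma adjusted p = 0.012). MNDA, a nuclear antigen of myeloid cells, measured 126.5, 773.7, 319.5 and 981.9 (limma adjusted p = 0.012). The values of CD86 and CLEC12A were also higher with IM alone than on control, and the combination gave the highest value of each. The remaining rises were FCGR1A and C3AR1, described above, and TYROBP and SIRPB1. The monocyte marker CD14 was at background on all 4 arrays.

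Gene groups known to respond to demethylating agents in other settings stayed mostly at background, as did 10373 of all 17687 genes. At the 0.543% called over all genes, lists of this size would hold few calls or none. Of 52 cancer-testis antigens, whose promoters are methylated in most adult tissues, 46 were at background on all 4 arrays and none was called by limma (0 higher and 2 lower at an unadjusted p under 0.05). XAGE1B was expressed from the start, at 4617 on control, 7306.6 with OR21, 2958.2 with IM and 3664 with the combination (limma adjusted p = 0.434). Of 63 germline and meiosis genes, 58 were at background and none was called (4 and 4 unadjusted). TKTL1, a transketolase-like gene, was at least 2-fold higher in both pairs (750.7 to 1604.3 and 1319.5 to 3513.5) but not called (limma adjusted p = 0.0823). Of 32 imprinted genes, 24 were at background and none was called (3 and 1 unadjusted). Of 16 clustered protocadherins 14 were at background and none was called (0 and 2 unadjusted).

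Beside 0.543% of all genes, interferon-stimulated genes, which demethylating agents can raise through endogenous retroviral RNA, had 1 call among 49. This was IFITM3, an antiviral membrane protein, at 1784.8 on control, 6522.9 with OR21, 3332.8 with IM and 8272.3 with the combination (1.59 ± 0.25, limma adjusted p = 0.0247). The list medians were -0.003 and 0.05, and 24 of its members stayed at background throughout. Of 27 genes of nucleic acid sensing and interferon signalling, none was called (3 higher and 1 lower unadjusted). Among 29 antigen presentation genes, none was called by limma either (3 and 0 unadjusted), though 13 were higher in both pairs and 2 lower, beside 26.0% and 30.5% of all genes. Their medians of 0.30 and 0.28 lay above those of all genes. CALR, a chaperone of HLA class I assembly, measured 164567, 281181.3, 80172.6 and 168136.8 (limma adjusted p = 0.145).

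Of 61 tumour suppressor genes reported methylated in leukaemia, 36 were at background on all 4 arrays. In this list THBS1 rose and IRF8 fell by limma, beside 0.486% and 0.0565% of all genes. THBS1, the angiogenesis inhibitor thrombospondin 1, was at 35.6, 86.0 and 92.4 on control, OR21 and IM, and reached 1380.4 with the combination alone (limma adjusted p = 0.049). Both values of the first pair were at background, and no fold is given.

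Metallothioneins bind zinc and copper. Of 12 measured genes, which include their regulator MTF1 and the zinc exporter SLC30A1, 11 were higher in both pairs and 6 at least 2-fold and above background with OR21, beside 26.0% and 0.452% of all genes. The list medians were 1.01 and 1.27, beside -0.02 and -0.03. By limma, MT1B was the 1 gene called, at 4534.1 on control, 13352.4 with OR21, 3557.4 with IM and 12758.1 with the combination (1.70 ± 0.25, limma adjusted p = 0.0229). MT2A measured 13064.1, 39600.2, 14301.6 and 35783.7 without passing (limma adjusted p = 0.13). The sequences of these genes are close and their probes may cross-hybridise, so they are not independent. In K562 the list median was 0.78, with 0 genes called and 7 higher at an unadjusted p under 0.05.

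The 24 measured genes of the DNA methylation machinery gave no calls in limma (2 higher and 1 lower unadjusted), beside 0.543% of all genes. At that share a list of this size would hold few calls or none. Of the 24, 5 were at background on all 4 arrays. DNMT1 measured 1626.3 on control, 1612.6 with OR21, 399.6 with IM and 409.5 with the combination. Its level was thus close within each pair and lower on both arrays with IM. UHRF1, its partner, measured 7876.4, 5612.4, 328.7 and 621.7 (limma adjusted p = 0.837), and the de novo enzyme DNMT3A 528.5, 485, 430.0 and 495.2 (limma adjusted p = 0.961). TET2, which oxidises methyl groups, measured 149.4 on control, 493.7 with OR21, 1650.6 with IM and 1879.5 with the combination, and was not called (limma adjusted p = 0.31).

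Genes of cytidine uptake and metabolism gave no call among 22 by limma (2 and 1 unadjusted), beside 0.543% of all genes. A list of this size would hold few calls or none at that share. DCK, the kinase that activates deoxycytidine analogues, measured 2149.9, 1683.6, 783.2 and 1089.4 (limma adjusted p = 0.947), and CDA, the deaminase that inactivates them, was at background on all 4 arrays. SAMHD1, a triphosphohydrolase of nucleotides, measured 1627.2, 957.1, 17966.2 and 13151.1 (limma adjusted p = 0.335). The transporter gene SLC29A1 measured 3719.6 on control, 4381.1 with OR21, 290.5 with IM and 885 with the combination (limma adjusted p = 0.298), and RRM2, a ribonucleotide reductase subunit, 8823.8, 9529, 145.9 and 528.7 (limma adjusted p = 0.307).

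Of 33 mitosis genes, 18 were higher with OR21 than on control and 32 higher with the combination than with IM, beside 48.1% and 47.4% of all genes. Their medians were 0.02 and 0.86. CDC20, the activator of the anaphase-promoting complex, measured 3171.6 on control, 5101.8 with OR21, 345.3 with IM and 1134.5 with the combination (limma adjusted p = 0.16). Of 36 genes of G1/S and DNA replication, 7 and 24 were higher in the same pairs, with medians of -0.26 and 0.16. None of either list was called by limma for OR21, beside 0.543% of all genes. Unadjusted, 7 mitosis genes were higher and 0 lower, and 1 replication gene was higher and 3 lower. The difference between the pairs was not tested, since each pair is 1 array against 1.

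The lists of stress and death responses held 1 call by limma, beside 0.543% of all genes called. Of 29 p53 targets, TIGAR, a regulator of glycolysis, was the 1 call, at 33.8, 83.3, 76.9 and 234.6 (limma adjusted p = 0.0269), above background on the combination array alone. Of 32 apoptosis regulators none was called (5 higher and 1 lower unadjusted), and the same held for 38 NF-kB and inflammatory genes (12 and 0) and 26 HOX and partner genes (3 and 1), all by limma. Over all 17687 genes the unadjusted counts were 1173 higher and 1047 lower. In the NF-kB list 47.4% of genes were higher in both pairs and 18.4% lower, beside 26.0% and 30.5% of all genes. The death ligand gene TNFSF10 measured 93.9, 289.3, 551.6 and 915.7 (limma adjusted p = 0.119), and the NF-kB list included ANXA1 at 1882, 4871.9, 4569.4 and 9323 (limma adjusted p = 0.0974).

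The markers of other cell types gave no calls, beside 0.543% of all genes. At that share lists this short would hold few calls or none. None of the erythroid, megakaryocytic, lymphoid, epithelial or fibroblast markers was called by limma, and at an unadjusted p under 0.05 there were 1 higher lymphoid marker and 1 higher and 2 lower epithelial markers. The summed intensity of the fibroblast markers was nevertheless higher on the IM and combination arrays, where vimentin (VIM) measured 4304.2 and 7244.4, than on control and OR21, where it measured 1701.7 and 1995.6.

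**Figure D4:**
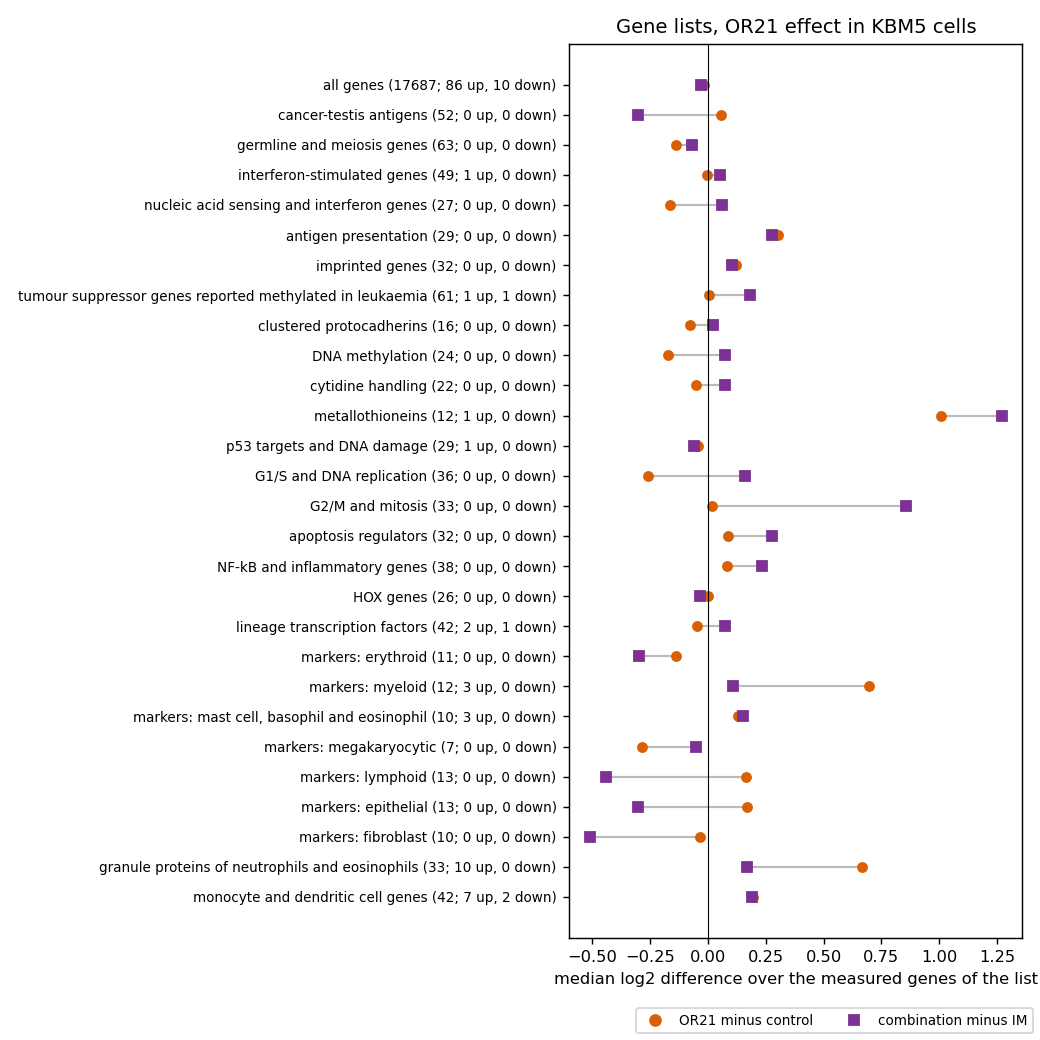
Median log2 difference of each gene list in KBM5 for OR21 minus control (circles) and combination minus IM (squares), with the number of measured genes and of limma calls in each direction in brackets. The metallothioneins lie near 1 in both pairs, the mitosis genes near 0 in one pair and at 0.86 in the other, and the list of all genes at 0. The last 2 lists were put together after the leading genes had been seen.

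Calls in K562 were few, so little overlap with the calls in KBM5 could be seen. In the same fit, the OR21 term of K562 had 16 rises (0.0905%) and 0 falls by limma (490 higher and 373 lower unadjusted). One gene, the histone gene H2BC14, was called higher in both lines, 1 of 86 in KBM5 and 1 of 16 in K562. Of the 86 rises in KBM5, 35 were higher in both K562 pairs, beside 24.7% of all genes. Of the 24 switched-on genes, 0 were called in K562 (3 higher unadjusted), beside 0.0905% of all genes called higher there. Among these 24, 8 were higher in both K562 pairs, 7 were above background on all 4 K562 arrays and 10 on none.

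The difference between the lines was tested itself, and 18 genes (0.102%) were called, 8 with the larger effect in KBM5 (0.0452%) and 10 in K562 (0.0565%), of 1352 with an unadjusted p under 0.05. Differences that involve values at background were printed as measured, and their true size is unknown. MPO had a difference of 7.45 ± 0.38 (limma adjusted p = 3.21e-05), and its intensity in K562 was 16.3 to 25.0, at background on all 4 arrays. CST7 differed by 5.10 ± 0.33 (limma adjusted p = 0.000139) and PRG2 by 5.27 ± 0.40 (limma adjusted p = 0.000488), and both were at background in K562 throughout. KCNH2 differed by 5.70 ± 0.76 (limma adjusted p = 0.0264), PPP1R27 by 5.38 ± 0.81 (limma adjusted p = 0.0467), C3AR1 by 3.94 ± 0.56 (limma adjusted p = 0.0335) and GATA2 by 3.06 ± 0.42 (limma adjusted p = 0.0264). CD86 was the last of the 8, at 3.09 ± 0.42. For CTSG, RAB13, CCR2 and IRF8 the difference between lines was not called (limma adjusted p = 0.219, 0.114, 0.243 and 0.586).

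Of the genes with the larger effect in K562, H2BC14 had the largest measured difference. Its intensity was 18.9 on the K562 control, 20592.2 with OR21, 12.9 with IM and 5282.7 with the combination, against 19.8, 291, 14.2 and 41.7 in KBM5, a difference of -6.67 ± 0.68 (limma adjusted p = 0.00535). As a member of a multicopy histone family, its probes may cross-hybridise. TKTL1 measured 388.6, 11441.7, 524.4 and 26951 in K562 and differed by -4.03 ± 0.38 (limma adjusted p = 0.00282). GCNA, a germ cell gene, ALOX12, a lipoxygenase, and AKR1E2, an aldo-keto reductase, were at background on all KBM5 arrays and above it on both K562 arrays with OR21. AQP1, a water channel of red cells, was also at background in KBM5, and in K562 went from 95.3 to 751.9 without IM and from 2655.6 to 9494.1 with it. With each array centred on the genes above background, 11 differences were called, 3 larger in KBM5 and 8 in K562 (27.3% against 44.4% larger in KBM5). Leaving out 1 array gave between 6, without the K562 control or K562 OR21 array, and 52, without the KBM5 control or KBM5 OR21 array.

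**Figure D5:**
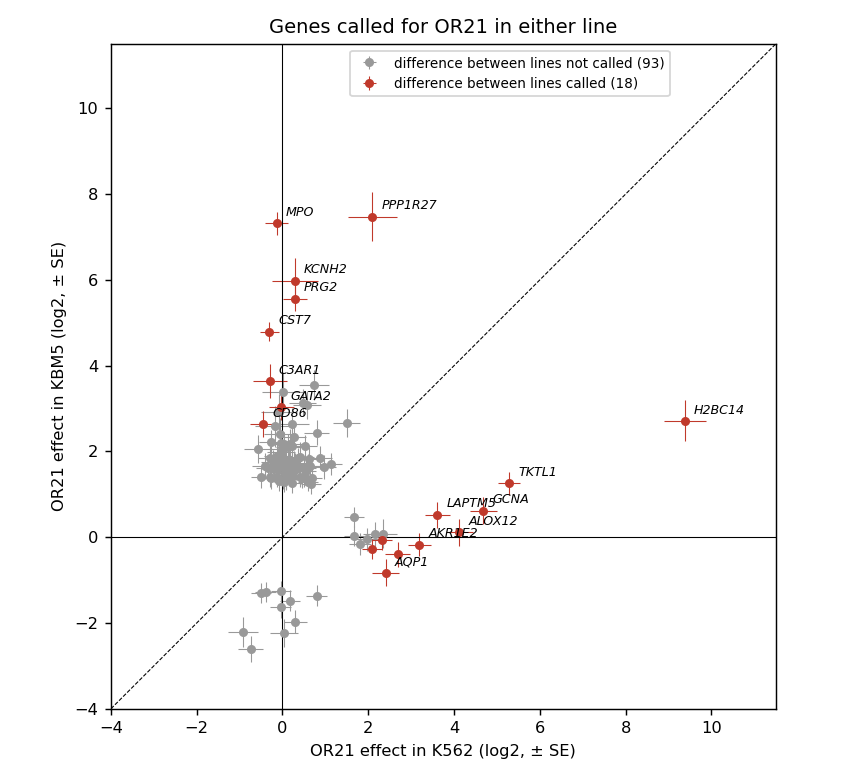
OR21 effect in K562 (horizontal) and KBM5 (vertical) with standard errors, in log2 intensity, for the 111 genes called in either line. The 18 genes whose difference between lines was called are in red, and the dashed line marks equal effects. MPO, KCNH2, PRG2 and CST7 lie close to the vertical axis, with K562 effects near 0, and H2BC14 is the 1 gene called in both.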

How the data were processed

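Total RNA of K562 and KBM5 cells was isolated with a column kit, biotin labelled and hybridised to expression arrays, per the labels' protocols. The authors deposited a linear intensity for each probe set. Which software, summarization and normalization produced it is not given in the sources used here. Of 24351 deposited probe sets, 17709 carried 1 gene symbol in the supplied annotation, giving 17687 genes. The 3739 transcript clusters with no symbol were counted only. Where a gene had several probe sets (20 genes), the brightest on average stood for it.

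Intensities were analysed as log2 without further normalization in R 4.3.3 with limma 3.58.1 (2 residual and 8.309 prior degrees of freedom), and p-values were adjusted by Benjamini-Hochberg over all genes. The call threshold was 0.05. Promoters and figures were processed with Python 3.11.15, pandas 2.3.3 and matplotlib 3.10.9. The model and counts were tested on simulated data.

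The members, gene lists (25 of the 27) and rules were chosen with earlier results of these data known, and the lists of granule genes and of monocyte and dendritic cell genes were added after the values were seen. Named genes were the 15 switched-on genes, and the 10 rises and 10 falls of genes above background, with the largest smaller-pair difference, up to 6 rises and falls of the difference between lines, up to 6 called members of a list (3 of those above background on at least 2 KBM5 arrays where none was called), the DNA methylation and cytidine handling genes, and switched-off genes. Other genes are said to fall outside this rule or were described as members of a list.

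The alternatives were quantile normalization, centring each array on the genes above background, the mean of probe sets, log2(value + 16), genes above background on at least 2 KBM5 arrays, moderation with an intensity trend, KBM5 arrays alone, a common OR21 by IM term, each array left out, backgrounds at the 90th and 99th percentile, and 1.5-fold and 3-fold.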

Additional observations from a re-analysis of the deposited data

Results flagged for a closer look

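The OR21 effect differed between KBM5 and K562 by limma's test of the difference in 14 named genes. Larger in KBM5 were MPO (7.45 on the log2 scale), KCNH2 (5.70), PPP1R27 (5.38), PRG2 (5.27), CST7 (5.10), C3AR1 (3.94), CD86 (3.09) and GATA2 (3.06). Larger in K562 were H2BC14 (-6.67), GCNA (-4.06), TKTL1 (-4.03), ALOX12 (-4.01), AKR1E2 (-3.36) and AQP1 (-3.24). Sizes that involve values at background are not exact. Each line had 1 array of each treatment.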

How the results depend on the processing

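No paired analysis was possible because each line and treatment had 1 array, so that replicate numbers pair no samples. The pairs with and without OR21 are already the basis of the model. The 96 calls for OR21 in KBM5 became 48 with each array centred on genes above background, 3 with log2(value + 16), 243 with an intensity trend and robust moderation, 54 in the KBM5 arrays alone and 43 with a common OR21 by IM term, and lay between 54 and 157 with 1 array left out. The count was 107 after quantile normalization, 96 with the mean of probe sets and 135 among genes above background on at least 2 KBM5 arrays. The 18 calls for the difference between lines became 11 with centring and 43 with the trend, and lay between 6 and 52 with 1 array left out. The 94 genes changed at least 2-fold in both pairs, and above background on both arrays of the higher side, became 373 at 1.5-fold and 22 at 3-fold, and between 278 and 495 with 1 array left out, which leaves 1 pair. The 24 switched-on genes became 6 with the 99th percentile as background, 58 at 1.5-fold and 9 at 3-fold, and between 63 and 136 with 1 KBM5 array left out, which again leaves 1 pair. Apart from what these settings do by construction, the cause was not tested. Of 133 named genes none reversed a call under the alternatives run for them, and 63 values with no call in either setting changed sign. Of the 38 called, 3 kept the call under every scaling, moderation and pseudocount, 18 with each array left out and 28 in the KBM5 arrays alone. Leaving out any K562 array gave the same fit as the KBM5 arrays alone, so those alternatives overlap. Of the list medians under alternatives, 108 lay within 1 SD of the medians of the 2 pairs from the reported value and 54 did not. Genes near background have no exact fold, and with 1 array for each treatment no spread between cultures was measured.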

Other observations

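Among the 3739 transcript clusters with no gene name here, 6 were at least 2-fold higher and 0 at least 2-fold lower in both KBM5 pairs with the higher side above background, and 2 met the rule for genes switched on. The 24 switched-on genes lay on 12 chromosomes, with 1 on X. Of the 86 genes called higher in KBM5, 6 lay on X (6.98%), where 709 of all genes lay (4.01%).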
